A study of Mus musculus with 9 samples.

Results

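The genes described here are 9 genes of heme metabolism in mouse liver, chosen by name: the synthesis enzymes Alas1, Alad, Uros, Urod, Cpox, Ppox and Fech, and the breakdown enzymes Hmox1 and Blvra. All 9 were measured, each by 1 probe set, among 19938 genes on the array. Heme is the iron-bearing ring of cytochromes, catalase and haemoglobin. Its synthesis begins in the mitochondrion with ALAS1, which joins glycine and succinyl-CoA and limits the rate of the pathway in liver, passes through the cytosol (ALAD, UROS, UROD) and returns to the mitochondrion (CPOX, PPOX, FECH). Heme oxygenase 1 opens the ring to biliverdin, iron and carbon monoxide, and biliverdin reductase A turns biliverdin into bilirubin. In liver much of the heme goes to microsomal cytochromes P450, heme feeds back on Alas1, and heme is also the ligand of the clock repressors REV-ERB alpha and beta.

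The arrays came from 9 mice, 3 in each of 3 groups, with 1 liver RNA per mouse. Rescue mice carried the Clock-D19 mutation and received, at week 10, 35 µg of a plasmid encoding wild-type Clock in the pLIVE vector, whose promoter is built for expression in liver, through hydrodynamic injection into the tail vein. Clock mutant mice carried Clock-D19 throughout the body, and its protein pairs with BMAL1 but is a poor activator. Wild-type mice were C57BL/6J. Every group was held in 12 h light and 12 h dark, ate a 45% fat diet for 5 weeks from the age of 10 weeks and was killed at zeitgeber time 10 (10 h after lights on), so only 1 hour of the day was sampled. No control injection of the other groups is described in the labels, so the plasmid cannot be told apart from the injection.

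All 18 hepatocyte markers lay above the 95th percentile of the olfactory receptor genes, used here as a yardstick of background, on all 9 arrays. The mean log2 value of those markers was 12.05 to 12.29 in rescue, 12.22 to 12.33 in Clock mutant and 12.06 to 12.24 in wild-type liver. Markers of macrophages and of endothelium differed between the groups, and their values stand beside Fech and Hmox1. Of 7 measured red cell markers, 2 cleared the yardstick on all arrays and none was called in any comparison (limma; 0 had an unadjusted p under 0.05). Alas2, the red cell form of the first enzyme, was not among them. It differed by 0.29 in Clock mutant against wild type and by -0.24 in rescue against Clock mutant. Neither passed (limma, unadjusted p = 0.0156 and 0.0391, adjusted p = 0.0794 and 0.212). The Clock transcript itself measured 10.33, 9.41 and 9.62 in rescue, 10.88, 9.89 and 10.55 in Clock mutant, and 9.97, 9.24 and 9.30 in wild-type livers, with all 3 groups overlapping. Whether its probe set tells the mutant transcript from that of the plasmid was not examined, so these values do not check the labels.

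The 9 genes did not move as a block. In Clock mutant against wild-type liver, 4 of 9 members (44.4%) passed the test, which is a limma adjusted p under 0.05 over all 19938 genes, where 15.4% of all genes passed. They split evenly by direction: Alad and Ppox rose (2 of 9, against 6.37% of all genes), and Alas1 and Fech, the first and the last enzyme genes of the pathway, fell (2 of 9, against 9.02%). In rescue against Clock mutant liver 1 of 9 members (11.1%) passed, against 3.81% of all genes (2.61% higher and 1.2% lower), and in rescue against wild-type liver 1 of 9 (11.1%) passed, against 2.28% of all genes (0.928% higher and 1.35% lower). In both it was Alas1, and it was higher. The median log2 difference of the 9 genes was 0.21, -0.17 and 0.16 in the 3 comparisons in that order, beside 0.07, -0.05 and 0.01 over all genes. The comparisons share arrays, so their values are not independent.

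The upstream sequences of 4 members are shown because these genes moved in opposite directions in the Clock mutant (Alas1 lower, Alad and Ppox higher) or came close to the threshold (Urod), and because CLOCK and BMAL1 bind the E-box CACGTG. Each run holds the 250 bases before the start of the gene in RefSeq (build GRCm38.p6), read 5′ to 3′ on the gene's strand, with E-boxes in capitals. Alas1 is at chr9:106247955-106248204 (minus strand), Alad at chr4:62520064-62520313 (minus), Urod at chr4:116994414-116994663 (minus) and Ppox at chr1:171281187-171281436 (minus). Where a gene has several listed starts, the outermost was taken.
Alas1: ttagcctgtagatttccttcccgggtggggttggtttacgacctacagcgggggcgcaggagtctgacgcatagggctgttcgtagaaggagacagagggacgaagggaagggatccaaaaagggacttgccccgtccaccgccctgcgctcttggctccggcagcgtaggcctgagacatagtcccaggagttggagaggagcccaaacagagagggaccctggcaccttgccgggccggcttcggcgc
Alad: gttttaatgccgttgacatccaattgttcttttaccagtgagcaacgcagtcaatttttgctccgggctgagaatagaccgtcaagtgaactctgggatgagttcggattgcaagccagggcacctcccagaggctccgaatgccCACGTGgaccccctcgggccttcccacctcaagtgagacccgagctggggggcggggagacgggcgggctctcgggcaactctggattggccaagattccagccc
Urod: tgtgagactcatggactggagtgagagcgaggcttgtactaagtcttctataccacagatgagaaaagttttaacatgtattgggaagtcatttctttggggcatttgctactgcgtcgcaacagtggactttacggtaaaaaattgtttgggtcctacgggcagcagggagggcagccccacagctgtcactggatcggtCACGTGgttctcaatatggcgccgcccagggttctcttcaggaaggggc
Ppox: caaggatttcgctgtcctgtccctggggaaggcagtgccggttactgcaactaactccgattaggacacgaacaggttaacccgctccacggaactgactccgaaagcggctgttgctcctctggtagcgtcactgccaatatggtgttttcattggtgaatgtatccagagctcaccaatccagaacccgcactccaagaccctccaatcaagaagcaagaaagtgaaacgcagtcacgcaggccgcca

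Windows of Hmox1 and Fech were not used, so the search leaves out Fech, which fell in the Clock mutant. Of the 7 members with a window, 3 held an E-box: Alad (first base 105 bases before the start), Urod (49 bases) and Uros (250 bases, at the outer edge of its window). An E-box was present in 6.04% of 27025 windows of the same length, a set that does not cover every chromosome. Neither Alas1 nor Ppox had one within these bases. None of the 7 windows held the related CACGTT (3.93% of all windows) or the nuclear receptor element AGGTCA (13.8%), to which REV-ERB and ROR proteins bind with flanking bases. The antioxidant response core TGACNNNGC occurred once, in Blvra (10.1% of all windows), and the NRF1 core GCGCANGC once, in Uros (8.42%). CCAAT was found in 4 of the 7 windows, with 4 copies in Ppox (34.5% of all windows hold it). None held the GATA factor site AGATAA (10.2%). The GC box GGGCGG was also found in 4 (33.0%). Both strands were searched, no site overlapped another in the windows printed, and a match describes letters only.

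Alas1, whose product commits glycine to heme, had the widest range of the 9 genes, and its range of group means was at the 99.8th percentile of all genes. Its log2 values were 8.42, 8.44 and 8.79 in rescue livers, 7.23, 6.76 and 6.79 in Clock mutant livers, and 7.63, 7.99 and 7.90 in wild-type livers. The 3 groups did not overlap, and the order was rescue, wild type, Clock mutant. Alas1 fell by 0.91 ± 0.15 (SE) in Clock mutant against wild-type liver, 1.88-fold (adjusted p = 0.00111, limma, n = 3 per group). It was 3.07-fold higher in rescue than in Clock mutant liver (1.62 ± 0.15, adjusted p = 1.37e-04). It was also 1.63-fold higher in rescue than in wild-type liver (0.71 ± 0.15, adjusted p = 0.0207), so the value after the plasmid lay beyond the wild-type level. That last call was lost without rescue replicate 3 (0.58, adjusted p = 0.107), without wild-type replicate 1 (0.60, 0.0973) or without wild-type replicate 3 (0.73, 0.0614). The other 2 calls held in all 18 alternatives.

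**Figure D1:**
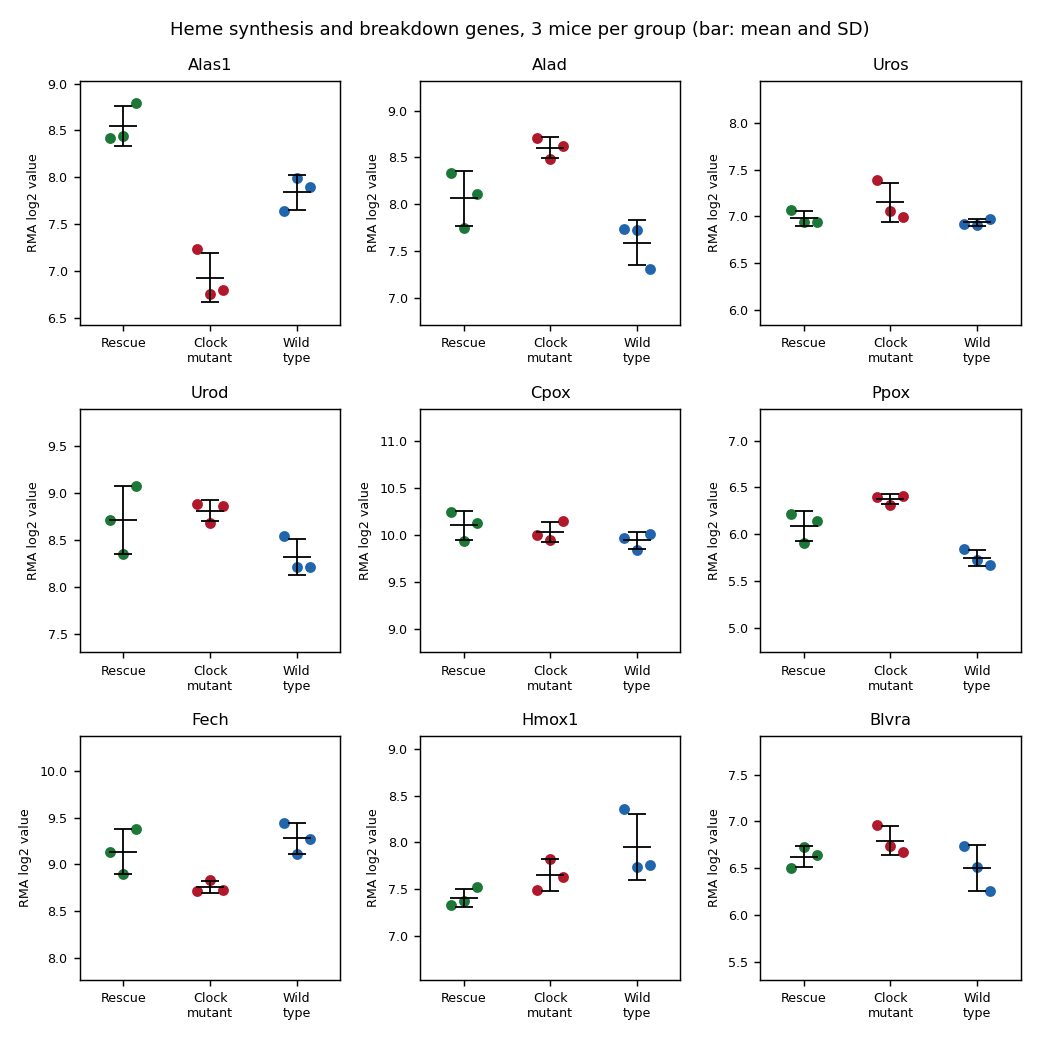
Log2 values of the 9 genes on each array (y axis, RMA log2 value; every panel spans the same range of log2 units), with rescue, Clock mutant and wild-type mice on the x axis; points are mice, bars the mean and SD of 3. Alas1 separates the 3 groups, with rescue highest and Clock mutant lowest, while Alad and Ppox are highest in the Clock mutant and lowest in wild type.

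Alad encodes the cytosolic enzyme that joins a pair of aminolevulinate molecules, the product of ALAS1, into porphobilinogen. Its log2 values were 8.33, 7.75 and 8.11 in rescue livers, 8.70, 8.48 and 8.62 in Clock mutant livers, and 7.73, 7.72 and 7.31 in wild-type livers. The 3 groups again did not overlap, although the lowest rescue value lay just above the highest wild-type one. The order of the groups was Clock mutant, rescue, wild type. Alad rose 2.02-fold in Clock mutant against wild-type liver (1.01 ± 0.15, adjusted p = 6.29e-04, limma), in all 18 alternatives too. Rescue was 0.54 ± 0.15 below Clock mutant (log2 difference -0.54, 95% interval -0.86 to -0.22, adjusted p = 0.0606) and 0.47 ± 0.15 above wild type (interval 0.15 to 0.80, adjusted p = 0.139), and neither difference passed. The first of these was called in 7 of 18 alternatives, among them without rescue replicate 1 (-0.68, adjusted p = 0.0365) and without wild-type replicate 3 (-0.54, 0.0485).

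Urod and Uros encode the next cytosolic steps, the decarboxylation of uroporphyrinogen and the closure of its ring. Urod measured 8.71, 8.35 and 9.07 in rescue, 8.88, 8.68 and 8.87 in Clock mutant, and 8.54, 8.21 and 8.21 in wild-type livers. All Clock mutant values lay above all wild-type ones, while the rescue values spread over both. The Clock mutant difference of 0.49 ± 0.16 (interval 0.15 to 0.83) just missed the threshold (adjusted p = 0.0512, limma) and passed in 9 of 18 alternatives, including those without rescue replicate 2 (adjusted p = 0.0225), rescue replicate 3 (0.0285) or wild-type replicate 1 (0.60, 0.0372). With the trend on gene span removed it was 0.36 (adjusted p = 0.165). For Uros the values were 7.07, 6.93 and 6.94 in rescue, 7.39, 7.06 and 6.999 in Clock mutant, and 6.92, 6.91 and 6.98 in wild-type livers. The Clock mutant values lay above the wild-type ones by as little as 0.02, and the difference of 0.21 ± 0.11 did not pass (adjusted p = 0.223). Without Clock mutant replicate 1 it was 0.09 (adjusted p = 0.619).

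Ppox, the gene of the mitochondrial oxidase that turns protoporphyrinogen into protoporphyrin, followed Alad. Its log2 values were 6.21, 5.90 and 6.14 in rescue livers, 6.40, 6.31 and 6.41 in Clock mutant livers, and 5.84, 5.73 and 5.67 in wild-type livers. No group overlapped another. Ppox rose 1.54-fold in Clock mutant against wild-type liver (0.63 ± 0.11, adjusted p = 0.00166, limma) and did so in all 18 alternatives. Rescue lay between, 0.28 ± 0.11 below Clock mutant (log2 difference -0.28, adjusted p = 0.151) and 0.34 ± 0.11 above wild type (adjusted p = 0.136), without passing. It is the dimmest of the 9 relative to background: it cleared the olfactory receptor yardstick on 6 of 9 arrays and the median of those genes on all 9. The folds of genes near background are understated by RMA.

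Cpox, which encodes the oxidase that acts before PPOX, did not differ detectably. Its values ran from 9.94 to 10.24 in rescue, 9.94 to 10.15 in Clock mutant and 9.84 to 10.01 in wild-type livers. The Clock mutant against wild-type difference was 0.09 ± 0.11, with an interval of -0.15 to 0.33 (adjusted p = 0.615, limma). Cpox is bright (96.1st percentile of mean level among genes), so dimness does not limit this interval.

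Fech, the gene of ferrochelatase, which inserts iron into protoporphyrin, moved with Alas1 and against Alad and Ppox in Clock mutant against wild-type liver. It did not share the rise of Alas1 in rescue against wild-type liver. The log2 values were 9.13, 8.90 and 9.38 in rescue livers, 8.72, 8.84 and 8.73 in Clock mutant livers, and 9.45, 9.11 and 9.28 in wild-type livers. Clock mutant values lay below all others, and rescue and wild type overlapped. Fech fell by 0.52 ± 0.13 in Clock mutant against wild-type liver, 1.43-fold (adjusted p = 0.0148, limma). The call was lost without Clock mutant replicate 1 (-0.50, adjusted p = 0.0507) or without wild-type replicate 1 (-0.44, 0.0641). Rescue exceeded Clock mutant by 0.38 ± 0.13 (interval 0.10 to 0.65), which did not pass (adjusted p = 0.114) except with array weights (0.49, adjusted p = 0.0328). Against wild type, rescue differed by -0.14 ± 0.13 (interval -0.42 to 0.13, adjusted p = 0.712).

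**Figure D2:**
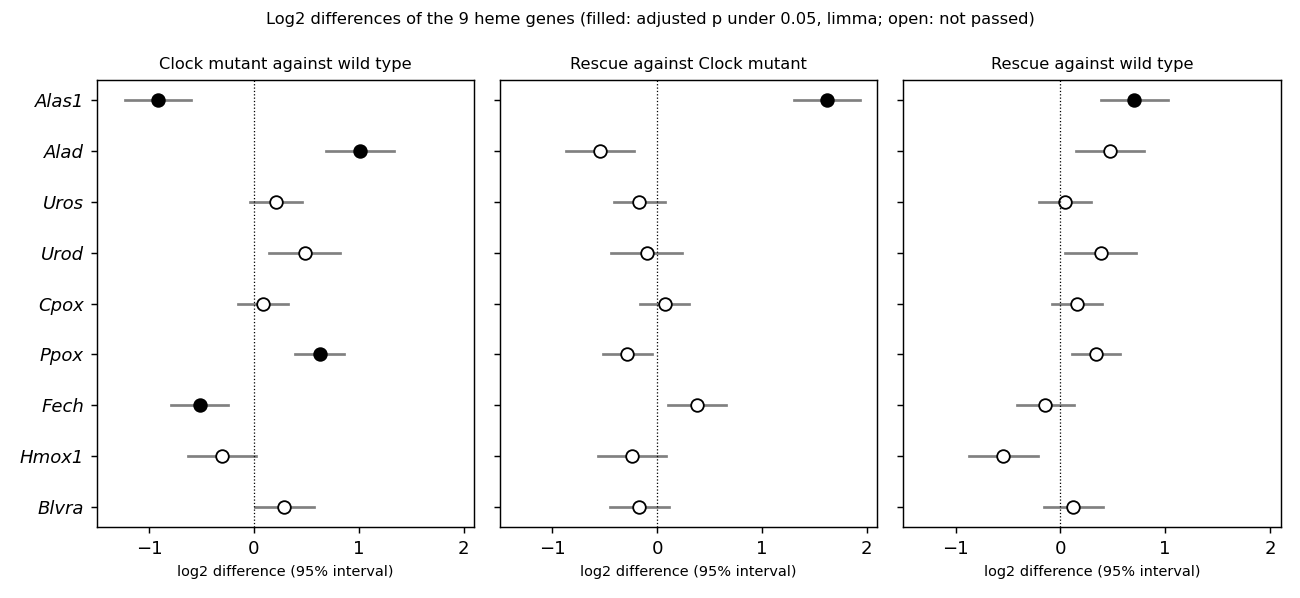
Log2 difference (x axis) of each of the 9 genes (y axis, in pathway order) in Clock mutant against wild type, rescue against Clock mutant and rescue against wild type; lines are 95% intervals of the limma fit, unadjusted, and filled points passed at an adjusted p under 0.05. In the first panel Alas1 and Fech lie left of 0 and Alad and Ppox right of it, and in the other panels Alas1 alone is filled.

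Neither breakdown gene passed in any of the 3 comparisons. Hmox1, the inducible heme oxygenase gene, which macrophages use heavily when they recycle red cells, had log2 values of 7.33, 7.37 and 7.52 in rescue livers, 7.49, 7.83 and 7.63 in Clock mutant livers, and 8.36, 7.74 and 7.76 in wild-type livers. Wild-type replicate 1 was the highest of all 9 arrays. Rescue values lay below all wild-type values, and Clock mutant overlapped both. Rescue was 0.54 ± 0.15 below wild type (log2 difference -0.54, interval -0.87 to -0.22), which missed the threshold (adjusted p = 0.0826, limma). It passed without the dimmest 40% of genes (adjusted p = 0.0489) and with a trended and robust prior (0.0434), and without wild-type replicate 1 the difference was -0.34 (adjusted p = 0.274). Clock mutant differed from wild type by -0.30 ± 0.15 (adjusted p = 0.191), and without wild-type replicate 1 by -0.10 (adjusted p = 0.648), so the size of both differences depended on that array. Blvra, the biliverdin reductase A gene, ran from 6.51 to 6.73 in rescue, 6.67 to 6.97 in Clock mutant and 6.25 to 6.74 in wild-type livers. Its groups overlapped and its largest difference, 0.29 ± 0.13 in Clock mutant against wild type, did not pass (adjusted p = 0.146), and it was 0.17 without wild-type replicate 3 (adjusted p = 0.461) and 0.41 without wild-type replicate 1 (0.0672).

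Markers of other liver cells also differed between the groups, in the order that Fech followed and Hmox1 did not. The mean log2 value of 19 Kupffer and macrophage markers was 7 to 7.24 in rescue, 6.87 to 6.93 in Clock mutant and 7.33 to 7.83 in wild-type livers, highest on the wild-type array that also had the highest Hmox1 and Fech. Of those 19, 11 fell in Clock mutant against wild type, 2 rose and 1 fell in rescue against Clock mutant, and 7 fell in rescue against wild type. For 19 endothelial markers the mean was 7.40 to 7.72 in rescue, 7.27 to 7.32 in Clock mutant and 7.73 to 7.90 in wild-type livers. Of these, 11 fell in Clock mutant against wild type, 2 rose in rescue against Clock mutant, and 2 fell in rescue against wild type. Over all genes, 9.02% fell in the first of these comparisons, 2.61% rose and 1.2% fell in the second, and 1.35% fell in the third. The median log2 difference in rescue against Clock mutant was 0.20 for the macrophage and 0.29 for the endothelial markers, beside -0.24 for Hmox1 and 0.38 for Fech. All 19 endothelial and 13 of 19 macrophage markers cleared the olfactory receptor yardstick on every array, and none was below the median of those genes. In whole liver, fewer cells of a type cannot be told apart from less RNA per cell, and the part of these cells in the values of Fech and Hmox1 was not tested.

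**Figure D3:**
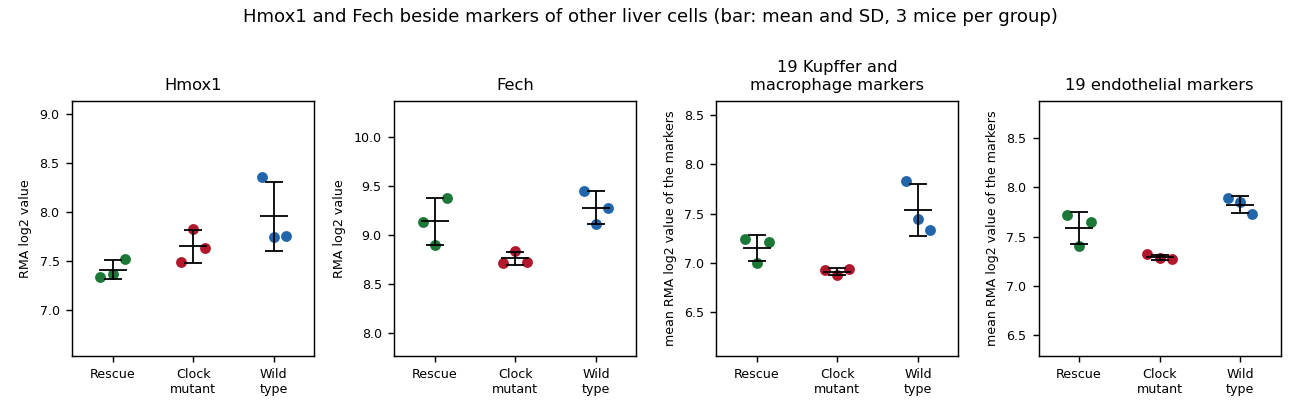
Hmox1 and Fech (left panels, RMA log2 value) beside the mean log2 value of 19 Kupffer and macrophage markers and of 19 endothelial markers (right panels), per array, with the mean and SD of 3 mice; every panel spans the same range of log2 units. Both marker means are lowest in Clock mutant and highest in wild-type livers; Fech follows that order, and Hmox1 is lowest in rescue livers.

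The members were also checked for a trend of the differences with the span of a gene on the genome. Ppox and Urod are short (19.4th and 20.6th percentile of span), Alad and Alas1 are near the middle (43.5th and 44.4th) and Fech is longer (66.8th). With this trend removed from each array, a setting added once the values were known, the same 4 members were called in Clock mutant against wild type. Alas1 was then at -0.98, Alad at 0.94, Ppox at 0.50 and Fech at -0.52 (adjusted p = 7.59e-04, 0.00108, 0.0087 and 0.0155, limma). Alas1 remained the only member called in each of the other 2 comparisons.

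Known regulators of Alas1 and Hmox1 were read next, in a list of 23 measured genes. Of these, 1 (Clock itself) rose and 6 fell in Clock mutant against wild type (6.37% and 9.02% of all genes). In rescue against Clock mutant 2 rose (2.61%), and in rescue against wild type 2 fell (1.35%). The rise of Clock, 0.94 ± 0.26 (adjusted p = 0.0266, limma), was lost with a trended and robust prior (0.139) and without Clock mutant replicate 1 (0.72, 0.108) or 3 (0.88, 0.0715) or wild-type replicate 2 (0.81, 0.0864) or 3 (0.83, 0.103). Hif1a, the gene of a hypoxia-induced activator of Hmox1, fell by 0.71 ± 0.11 in Clock mutant against wild type (adjusted p = 7.38e-04) in all 18 alternatives. It rose by 0.49 ± 0.11 in rescue against Clock mutant (adjusted p = 0.0279), a call lost without Clock mutant replicate 1 (0.48, 0.0854) or 2 (0.44, 0.0817) or rescue replicate 2 (0.49, 0.0751) or 3 (0.45, 0.0992). Nr1d1, which encodes REV-ERB alpha, measured 10.15, 9.92 and 10.64 in rescue, 8.88, 9.005 and 8.95 in Clock mutant, and 9.97, 10.30 and 8.96 in wild-type livers. In Clock mutant against wild type it fell by 0.80 ± 0.26 (adjusted p = 0.0485), a call that held in 8 of 18 alternatives. The difference was -0.52 without wild-type replicate 2 (adjusted p = 0.176) and -1.19 without wild-type replicate 3 (0.00162), and the replicate block ended the call (0.0626). It rose in rescue against Clock mutant by 1.29 ± 0.26 (adjusted p = 0.0167, limma), a call lost with a trended and robust prior (0.0937) and without Clock mutant replicate 1 (1.26, 0.0604) or rescue replicate 3 (1.09, 0.0723). Nr1d2, which encodes REV-ERB beta, measured 8.86, 8.51 and 8.99 in rescue, 8.74, 8.15 and 8.31 in Clock mutant, and 9.83, 9.49 and 9.41 in wild-type livers, the wild-type values lying above all others. It fell by 1.18 ± 0.17 in Clock mutant against wild type (adjusted p = 4.08e-04), and it was 0.79 ± 0.17 lower in rescue than in wild type (log2 difference -0.79, adjusted p = 0.0199), although the call was lost without rescue replicate 1 (-0.83, 0.0502), rescue replicate 2 (-0.65, 0.0894) or wild-type replicate 1 (-0.66, 0.0943).

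Ppargc1a encodes PGC-1 alpha, a coactivator that induces Alas1 in fasting liver. It measured 9.07, 8.86 and 8.99 in rescue, 8.58, 8.68 and 8.48 in Clock mutant, and 8.90, 8.90 and 9.07 in wild-type livers, so the Clock mutant values lay below all others. It fell by 0.38 ± 0.11 in Clock mutant against wild type (adjusted p = 0.0272, limma; lost with quantile normalization repeated, -0.27 and 0.0893, and without Clock mutant replicate 1, -0.38 and 0.0693, Clock mutant replicate 3, -0.33 and 0.0967, or wild-type replicate 3, -0.32 and 0.111). Rescue exceeded Clock mutant by 0.40 ± 0.11 (adjusted p = 0.0507). Foxo1, on the same list, also fell in Clock mutant against wild type, a call that held in 14 of 18 alternatives. It averaged 7.02 in rescue, 7.07 in Clock mutant and 7.49 in wild-type livers. Unlike Ppargc1a, Foxo1 was thus as low in rescue as in Clock mutant livers (rescue against wild type -0.47 ± 0.12, adjusted p = 0.0536, limma, not passed). Bach1, the heme-sensing repressor of Hmox1, fell by 0.46 ± 0.10 in Clock mutant against wild type (adjusted p = 0.0089), in all 18 alternatives, while Hmox1 did not pass there. Arntl, the gene of BMAL1, was 0.52 ± 0.12 lower in rescue than in wild type (log2 difference -0.52, adjusted p = 0.037), a call that held in 9 of 18 alternatives and was lost without either of 2 wild-type arrays, replicate 2 (-0.52, 0.0829) or replicate 3 (-0.39, 0.154), without any 1 rescue array (-0.49 to -0.56, 0.0797 to 0.116) and without Clock mutant replicate 1 (0.0509) or 3 (0.0503).

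**Figure D4:**
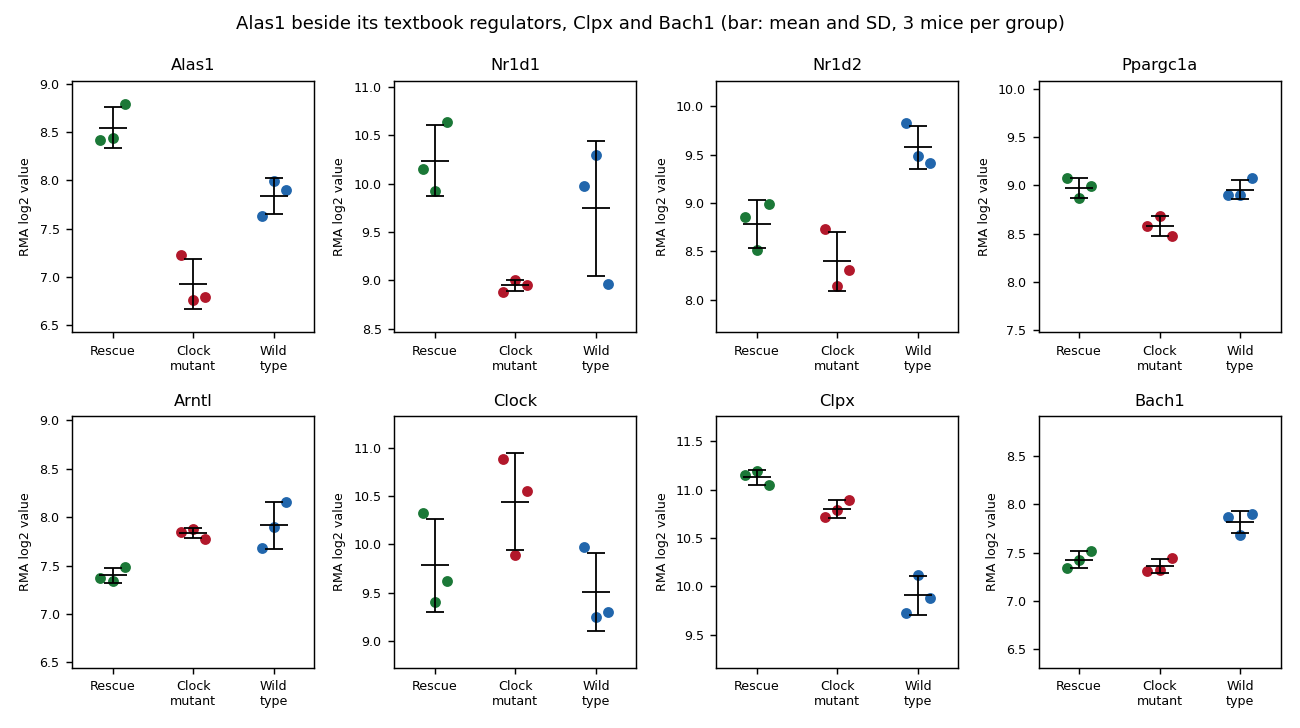
Log2 values per array (y axis, RMA log2 value; every panel spans the same range of log2 units) of Alas1, of 5 genes tied to its control (Nr1d1, Nr1d2, Ppargc1a, Arntl, Clock), of Clpx and of Bach1, in rescue, Clock mutant and wild-type mice, with the mean and SD of 3. Alas1, Nr1d1 and Ppargc1a are each lowest on average in the Clock mutant, Nr1d2 is highest in wild type, and Clpx is high in both groups that carry the mutation.

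Clpx stood out among 18 measured mitochondrial partners of heme synthesis. It encodes an unfoldase that helps load the ALAS cofactor and, with the protease CLPP, takes part in the heme-driven removal of ALAS1 protein. Its log2 values were 11.15, 11.19 and 11.04 in rescue, 10.72, 10.79 and 10.90 in Clock mutant, and 9.72, 10.11 and 9.87 in wild-type livers. No group overlapped another, and the order was rescue, Clock mutant, wild type. Clpx rose 1.86-fold in Clock mutant against wild type (0.90 ± 0.12, adjusted p = 2.28e-04, limma) and was 2.34-fold higher in rescue than in wild type (1.22 ± 0.12, adjusted p = 5.14e-05), both in all 18 alternatives. Rescue exceeded Clock mutant by 0.33 ± 0.12 (adjusted p = 0.121). Alas1, by contrast, was lower in Clock mutant and higher in rescue than in wild type.

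The rest of that list moved both ways. In Clock mutant against wild type 3 of 18 rose and 2 fell (6.37% and 9.02% of all genes). In rescue against Clock mutant none passed (limma, 3.81% of all genes), where 4 had an unadjusted p under 0.05. In rescue against wild type Clpx alone passed (2.28% of all genes). The iron-sulfur scaffold gene Iscu rose by 0.50 ± 0.12 in the Clock mutant (adjusted p = 0.0127; lost without Clock mutant replicate 1, 0.46 and 0.0513, without wild-type replicate 3, 0.44 and 0.0615, and with the span trend removed, 0.38 and 0.0577). Slc25a37, the gene of mitoferrin 1, which carries iron into mitochondria, fell by 0.43 ± 0.12 (adjusted p = 0.028), a call lost without any 1 of the 3 Clock mutant arrays (-0.42 to -0.43, 0.0618 to 0.0694) and without wild-type replicate 1 (-0.32, 0.119) or 3 (-0.44, 0.0662). Of 6 other enzyme genes of heme synthesis and breakdown, only Hccs, which attaches heme to cytochrome c, passed: it fell by 0.39 ± 0.10 in the Clock mutant (adjusted p = 0.0178; -0.37 and 0.0638 without Clock mutant replicate 1, -0.33 and 0.0839 without wild-type replicate 3). Alas2, the red cell form of the first enzyme, differed by 0.29 ± 0.11 in the same comparison (adjusted p = 0.0794), opposite in sign to Alas1, and Hmox2, the constitutive oxygenase gene, by 0.20 ± 0.14 (0.338).

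Heme handling outside the pathway was read in a list of 9 genes. In Clock mutant against wild type 2 rose and 2 fell (6.37% and 9.02% of all genes). Cd163, the macrophage receptor for haemoglobin bound to haptoglobin, fell by 0.94 ± 0.12 (adjusted p = 2.47e-04, limma) and was likewise 0.89 ± 0.12 lower in rescue than in wild type (log2 difference -0.89, adjusted p = 0.00128), both in all 18 alternatives, beside the lower macrophage markers described above. Abcg2, which encodes an exporter of porphyrins and heme, measured 9.50, 9.50 and 9.29 in rescue, 8.86, 8.49 and 8.95 in Clock mutant, and 9.75, 9.35 and 9.52 in wild-type livers. The Clock mutant values lay below all others, as for Fech. Abcg2 fell by 0.77 ± 0.14 in Clock mutant against wild type (adjusted p = 0.00185) and rose by 0.66 ± 0.14 in rescue against Clock mutant (adjusted p = 0.0198), the second call being lost without Clock mutant replicate 2 (0.53, 0.0632) or rescue replicate 2 (0.63, 0.0708). Hpx, the gene of the plasma heme carrier hemopexin, rose by 0.57 ± 0.14 in the Clock mutant (adjusted p = 0.0145), a call lost without Clock mutant replicate 1 (0.48, 0.0657) or wild-type replicate 2 (0.50, 0.0563) or 3 (0.50, 0.0691).

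Likeness of pattern was measured, without a test, as the root mean square difference between the values of a pair of genes over the 9 arrays, each centred on its own mean. Nearest to Alas1, whose own spread about its mean was 0.69 log2 units, were Wee1 (0.29), the pseudogene Olfr1372-ps1 (0.30), the cytochrome gene Cyp2b9 (0.32), Ly96 (0.33) and Ccdc152 (0.34). Of these only Ly96 cleared the olfactory receptor yardstick on all 9 arrays, while Wee1 and Cyp2b9 did so on 3, Ccdc152 on 1 and Olfr1372-ps1 on 0, so the patterns of those 4 were measured near background. Ly96, the gene of a partner of the endotoxin receptor, differed by 1.02 in rescue against Clock mutant, beside 1.62 for Alas1, and by 0.18 in rescue against wild type, beside 0.71 for Alas1. Nearest to Alad (own spread 0.45) were Park7, Agxt, Uqcrq, Pcyt2 and Haao, at 0.11 to 0.13, and nearest to Ppox (own spread 0.27) were Metap1d, Cideb, Trir, Bcl2l1 and Fxyd1, at 0.06 to 0.07. No other member of the 9 was among the 5 nearest of any of the 3.

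Complete separation of the groups was more frequent among the members than the calls. The 3 against 3 values did not overlap for 6 of 9 members in Clock mutant against wild type (35.7% of all genes), for 4 of 9 in rescue against Clock mutant (25.7%) and for 4 of 9 in rescue against wild type (19.5%). Alas1, Alad and Ppox separated in all 3 comparisons. For Alad and Ppox the rescue values lay between those of the other groups, and for Alas1 above both.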

How the data were processed

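Liver RNA of 9 mice was hybridised to 1 Affymetrix array each. Expression is deposited on a log2 scale, 1 value per probe set; the authors used RMA in Affymetrix Expression Console, per the submitters' processing notes (version not given in the sources used here). This step forces a common distribution on the probe intensities of the arrays and shrinks differences near background. The gene values used here still differed in median, from 6.12 on wild-type replicate 3 to 6.27 on Clock mutant replicate 2. The log2 scale was inferred from a range of -0.464 to 13.86. The number of arrays limits the precision, and the p-values measure the spread between these animals.

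Of 35556 probe sets, 21789 had 1 gene symbol in the platform annotation, 1621 several and 12146 none; symbols were checked against RefSeq (21698 matched by Entrez identifier, none changed). The brightest probe set per gene was kept, which left 19938 genes. All 9 arrays were fitted together with limma 3.58.1 in R 4.3.3 (6 residual and 8.475 prior degrees of freedom), with Benjamini-Hochberg adjustment over all genes and calls at an adjusted p under 0.05; figures used matplotlib 3.10.9. Errors are SEs of the fit and intervals are 95%, unadjusted. The model was tested on simulated data with known changes.

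The members and all gene lists were chosen with earlier results of these data known. Named genes are the 9 members, up to 4 genes of smallest p per list and comparison, the regulators of Alas1, and the 5 nearest patterns of the 3 members of widest range. Promoter sequences are from RefSeq (GRCm38.p6). Alternatives were 17 planned settings and 1 added later.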

Additional observations from a re-analysis of the deposited data

How the results depend on the processing

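Of 486 member differences recomputed over 18 alternatives, 462 stayed on their side of the threshold, 19 gained a call, 5 lost one and no called difference changed direction. Most of the 486 belong to differences without a call in the main fit, so the 462 says little about how firm the calls are. In Clock mutant against wild type the count of called members was 4 (15.4% of all genes), and 3 to 5 when 1 array was left out (8.5% to 15.7% of all genes). In rescue against Clock mutant the count was 1 (3.81% of all genes), and 1 to 2 when 1 array was left out (1.0% to 3.47%). It was 2, with Alad beside Alas1, with the replicate number as a block (4.67%), without the dimmest 40% of genes (9.85%), with quantile normalization repeated (4.94%) and with a trended and robust prior (6.07%), and 3, with Fech too, with array weights (6.69%). The share of all genes called was thus higher in each of these settings as well. In rescue against wild type it was 1 (2.28%), and 0 to 1 when 1 array was left out (1.17% to 2.51%); it was 2, with Hmox1, without the dimmest 40% of genes (5.94%) and with a trended and robust prior (3.53%). Leaving out dim genes lowers the number of tests; for the other settings the cause was not tested. With the replicate block, Urod was called in Clock mutant against wild type (0.49, adjusted p = 0.0303) and Alad in rescue against Clock mutant (-0.54, 0.0455), and no member lost a call. The deviations of same-numbered animals correlated at -0.111 to 0.191 over 9 pairs, with 4 above 0.1. All pairs of replicates 1 and of replicates 2 were positive. Animals of different number correlated at -0.256 to 0.179. The labels name no pairing, so the numbers were not taken to pair the animals. A shared batch was not tested. Every member had a single probe set, so averaging probe sets changed none of their values. Ppox lies near the background yardstick in wild type.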

Other observations

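Genes of heme proteins that draw on the pathway were read in a list that also holds Cyb5r3, the gene of a reductase without heme. The list moved in both directions. Of 39 measured genes, 3 rose and 5 fell in Clock mutant against wild type (6.37% and 9.02% of all genes). Cyb5r3 was among those that rose, in all 18 alternatives. In rescue against Clock mutant 3 rose and 1 fell (2.61% and 1.2%), and in rescue against wild type 2 fell (1.35%). The list was not tested against those shares. Cyp7a1, the first enzyme gene of bile acid synthesis, measured 8.95, 7.61 and 9.15 in rescue, 10.42, 10.18 and 10.22 in Clock mutant, and 10.55, 10.67 and 11.004 in wild-type livers. It was 2.17 ± 0.28 lower in rescue than in wild type (log2 difference -2.17, adjusted p = 9.18e-04, limma), in all 18 alternatives. Cyp39a1, an oxysterol hydroxylase gene, rose by 0.996 ± 0.18 in rescue against Clock mutant (adjusted p = 0.0125), and Cyp3a13 fell by 0.69 ± 0.10 in Clock mutant against wild type (adjusted p = 4.92e-04), each in all 18 alternatives.

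Some genes of iron handling were called. Of 25 measured, none passed in rescue against Clock mutant (3.81% of all genes) and 1 fell in rescue against wild type (1.35%). In Clock mutant against wild type 3 rose and 3 fell (6.37% and 9.02% of all genes). Tmprss6, whose protease restrains hepcidin, rose by 0.48 ± 0.11 (adjusted p = 0.00717, limma), and Slc40a1, the gene of the iron exporter ferroportin, fell by 0.58 ± 0.13 (0.00798), each in all 18 alternatives. Slc40a1 is also used by macrophages, whose markers were lower on the same arrays; their part was not tested. Hamp, the hepcidin gene, singled out after its values were seen, averaged 12.67 in rescue, 12.74 in Clock mutant and 12.79 in wild-type livers and was not called. A list for bilirubin handling had 6 measured genes: Abcc2, Abcc3, Slco1a1, Slco1a4, Slco1b2 and Gsta4. None encodes a UDP-glucuronosyltransferase, the enzyme class that conjugates bilirubin, so conjugation was not covered. In Clock mutant against wild type 2 fell, Gsta4 and Slco1a1 (9.02% of all genes), and in rescue against Clock mutant 1 rose, Gsta4 (2.61%). Gsta4, a glutathione transferase gene, differed by -0.99 ± 0.11 and 0.79 ± 0.11 (limma adjusted p = 8.08e-05 and 0.00248), each in all 18 alternatives. The fall of Slco1a1 was called in 9 of 18 alternatives. Of 19 NRF2 targets other than Hmox1, 3 rose and 1 fell in Clock mutant against wild type (6.37% and 9.02% of all genes). In rescue against Clock mutant 2 rose (2.61%), and in rescue against wild type 1 rose (0.928%). The pentose phosphate genes Taldo1, Pgd and Tkt rose in the first comparison, in 15, 11 and 10 of 18 alternatives, and Gsr, the glutathione reductase gene, fell there in 16 and rose in rescue against Clock mutant in 11. Gclc, of glutathione synthesis, rose in rescue against Clock mutant in 13 of 18 alternatives and was 0.53 ± 0.11 higher in rescue than in wild type (adjusted p = 0.0162; lost without rescue replicate 3, 0.47 and 0.0894, or wild-type replicate 3, 0.46 and 0.0842).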
